A study of Homo sapiens with 21 samples.

Results

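The genes described here are 8 that encode neuropeptides and related peptide hormones (CALCB, CCK, APELA, SPX and NPY), a protease that processes their precursors (PCSK1), and receptors of one of them (NPY1R and NPY5R). They were looked up by symbol among the 57820 genes of a table from A673 cells, an established human Ewing sarcoma line, and all 8 were found, as ENSG00000175868 (CALCB), ENSG00000187094 (CCK), ENSG00000248329 (APELA), ENSG00000134548 (SPX), ENSG00000122585 (NPY), ENSG00000175426 (PCSK1), ENSG00000164128 (NPY1R) and ENSG00000164129 (NPY5R). They were selected as a set on their normalized expression values, because members of the set part the wild-type, mut9 and delta 22 rescues. SPX does not, as its rescue groups overlap. Differences that involve a rescue are therefore given for all 8 genes as a description, without a test. The tests on them are limited to knockdown against control.

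Ewing sarcoma is driven by EWS/FLI, a fusion of the EWSR1 and FLI1 genes whose product activates and represses genes, in part through repeats of the motif GGAA. All cells were selected for 4 days for an RNAi construct and then given a pMSCV-hygro vector, empty or with a rescue construct. Wild-type libraries carry EWS/FLI RNAi and type IV EWS/FLI (n = 5), mut9 libraries EWS/FLI RNAi and the mut9 mutant (n = 3), delta 22 libraries EWS/FLI RNAi and the delta 22 mutant (n = 4), knockdown libraries EWS/FLI RNAi and an empty vector (n = 5), and control libraries luciferase RNAi and an empty vector (n = 4). The labels do not say which residues mut9 and delta 22 change. The 21 libraries come from 1 cell line, and the labels give each a batch that equals its replicate number: 1 to 5 for wild-type and knockdown, 3 to 5 for mut9, 1 to 4 for delta 22, and 1, 2, 3 and 5 for control.

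Neuropeptides are made as longer precursors that enter the secretory pathway, are cut at pairs of basic residues by prohormone convertases, trimmed by carboxypeptidase E, often amidated at the C-terminus, and stored in dense-core vesicles with granins. Once released they act on G protein-coupled receptors. Neuropeptide Y and its receptors are known to be highly expressed in Ewing sarcoma, and cholecystokinin is a known product of these tumours.

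Because the study's title concerns binding at GGAA repeats, the 250 bases before the annotated start were read from RefSeq promoters (GRCh38.p14) for the 7 members listed there: CCK, APELA, SPX, PCSK1, NPY, NPY1R and NPY5R. The search was for GGAA on either strand (written GGAA or TTCC) and for 2 or 3 such copies in a row, where a longer run also counts for the shorter ones. A single copy is found in 92.7% of the 35116 RefSeq windows of this length, 2 in a row in 3.06% and 3 in a row in 0.0712%. Among the 10 member windows, 1 start of PCSK1 held 2 in a row, and none held 3 in a row; the median over all windows is 3 copies, in a row or not. Shown are the windows of that PCSK1 start (6 copies), of the gene with the largest rescue difference, APELA (2 copies), and of the receptor pair NPY1R (6 copies) and NPY5R (3 copies), whose values ran together over the libraries. At least 6 copies are found in 9.14% of all windows. Each is written 5′ to 3′ in the direction of its gene with the copies in capitals.
PCSK1 (chr5:96433249-96433498, minus strand): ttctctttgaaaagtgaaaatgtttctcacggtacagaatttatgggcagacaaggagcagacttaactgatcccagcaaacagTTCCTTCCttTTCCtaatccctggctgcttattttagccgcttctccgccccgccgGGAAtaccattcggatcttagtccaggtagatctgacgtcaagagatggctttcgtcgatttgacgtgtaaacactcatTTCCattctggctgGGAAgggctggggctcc
APELA (chr4:164876928-164877177, plus strand): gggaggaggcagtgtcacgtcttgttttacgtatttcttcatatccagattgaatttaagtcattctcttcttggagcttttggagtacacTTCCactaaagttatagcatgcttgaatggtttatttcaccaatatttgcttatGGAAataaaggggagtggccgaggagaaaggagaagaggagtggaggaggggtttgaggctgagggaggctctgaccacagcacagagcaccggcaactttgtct
NPY1R (chr4:163332597-163332846, minus strand): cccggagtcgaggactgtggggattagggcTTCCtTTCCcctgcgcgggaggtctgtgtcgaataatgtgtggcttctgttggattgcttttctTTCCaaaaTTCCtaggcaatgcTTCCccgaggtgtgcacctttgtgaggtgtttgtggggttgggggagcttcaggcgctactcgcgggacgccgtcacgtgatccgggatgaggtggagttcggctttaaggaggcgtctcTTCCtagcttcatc
NPY5R (chr4:163343642-163343891, plus strand): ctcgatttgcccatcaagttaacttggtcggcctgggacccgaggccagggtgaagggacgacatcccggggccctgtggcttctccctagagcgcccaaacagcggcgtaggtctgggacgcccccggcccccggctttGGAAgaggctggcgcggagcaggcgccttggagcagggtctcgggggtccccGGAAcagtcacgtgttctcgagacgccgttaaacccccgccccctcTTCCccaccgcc
These copies are letters in a window, not measured binding sites, and repeats further from the start were not searched.

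Values are the authors' normalized log2 values, in which low genes are drawn together, so that differences of low genes are understated and levels cannot be compared between genes. Library totals are not kept, and 16708 to 17326 genes per library reached 10 on the linear scale. FLI1, whose 3′ part lies in the fusion, had 10.35 to 10.69 in wild-type, 10.10 to 10.39 in mut9, 10.99 to 11.51 in delta 22, 9.59 to 9.99 in knockdown and 11.56 to 11.69 in control libraries, counting endogenous and vector RNA together. Of 10 genes listed as Ewing sarcoma markers, 9 reached 10 on the linear scale in every library, and CD99 is listed at 0. Among neuroendocrine markers, SYP, CHGA, ENO2, SYT1, UCHL1 and NCAM1 reached 10 in every library, and INSM1 and DBH stayed below 10 in all of them. The RNA comes from whole cultures, in which fewer cells expressing a gene and less RNA per cell cannot be told apart.

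All 8 members passed the filter in every group, with each of the 21 libraries at or above 10 on the linear scale for each of them. Differences are log2 differences between group means ± standard error from limma, and a gene is called when its Benjamini-Hochberg adjusted p over 18040 genes is under 0.05.

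CALCB, which encodes the precursor of beta-calcitonin gene-related peptide, a vasodilator peptide of sensory neurons, was high with wild-type EWS/FLI and stayed low with both mutants. Its log2 values were 10.22, 11.40, 10.44, 10.42 and 10.25 in wild-type libraries (replicates 1 to 5), 6.98, 6.83 and 6.77 in mut9 libraries and 4.85, 5.23, 5.84 and 5.69 in delta 22 libraries. They were 5.71, 5.51, 6.84, 6.05 and 6.68 in knockdown libraries and 8.70, 9.15, 9.59 and 9.04 in control libraries. Every wild-type library lay above every control library, and every control library above every mut9 library, whereas mut9 libraries overlapped with knockdown libraries, and knockdown with delta 22 libraries. The wild-type mean was 4.39 ± 0.27 above knockdown (21-fold) and 1.43 ± 0.29 above control. The mut9 mean was 0.70 ± 0.31 from knockdown, and the delta 22 mean -0.76 ± 0.29. Wild-type replicate 2 stood above the other 4, and without it the difference from knockdown was 4.18 and that from control 1.22.

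CCK, the gene of cholecystokinin, a peptide of gut endocrine cells and brain neurons, had the same order of groups. Its log2 values were 9.59, 8.84, 7.90, 10.36 and 9.53 in wild-type, 5.30, 6.21 and 6.48 in mut9 and 4.18, 3.92, 4.11 and 4.26 in delta 22 libraries. In knockdown libraries they were 4.93, 4.13, 5.03, 4.25 and 6.06, and in control libraries 9.47, 8.33, 8.64 and 9.43. Wild-type and control libraries overlapped and lay above all others, while mut9 overlapped with knockdown and knockdown with delta 22. Wild-type minus knockdown was 4.36 ± 0.40 (20.6-fold), mut9 minus knockdown 1.12 ± 0.46 and delta 22 minus knockdown -0.76 ± 0.43. Delta 22 values were the lowest and varied least (SD 0.15, against 0.57 to 0.92 in the other groups).

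Set directly against the wild-type rescue, mut9 was 12.9-fold lower for CALCB (mut9 minus wild-type -3.69 ± 0.31) and 9.48-fold lower for CCK (-3.25 ± 0.46). The groups did not overlap for either gene. Within batches 3, 4 and 5 the CALCB difference was -3.46, -3.59 and -3.48, nearly the same in each, and the CCK difference -2.60, -4.16 and -3.04. Mut9 minus delta 22 was 1.46 ± 0.33 for CALCB and 1.88 ± 0.48 for CCK, and here too the groups did not overlap.

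**Figure D1:**
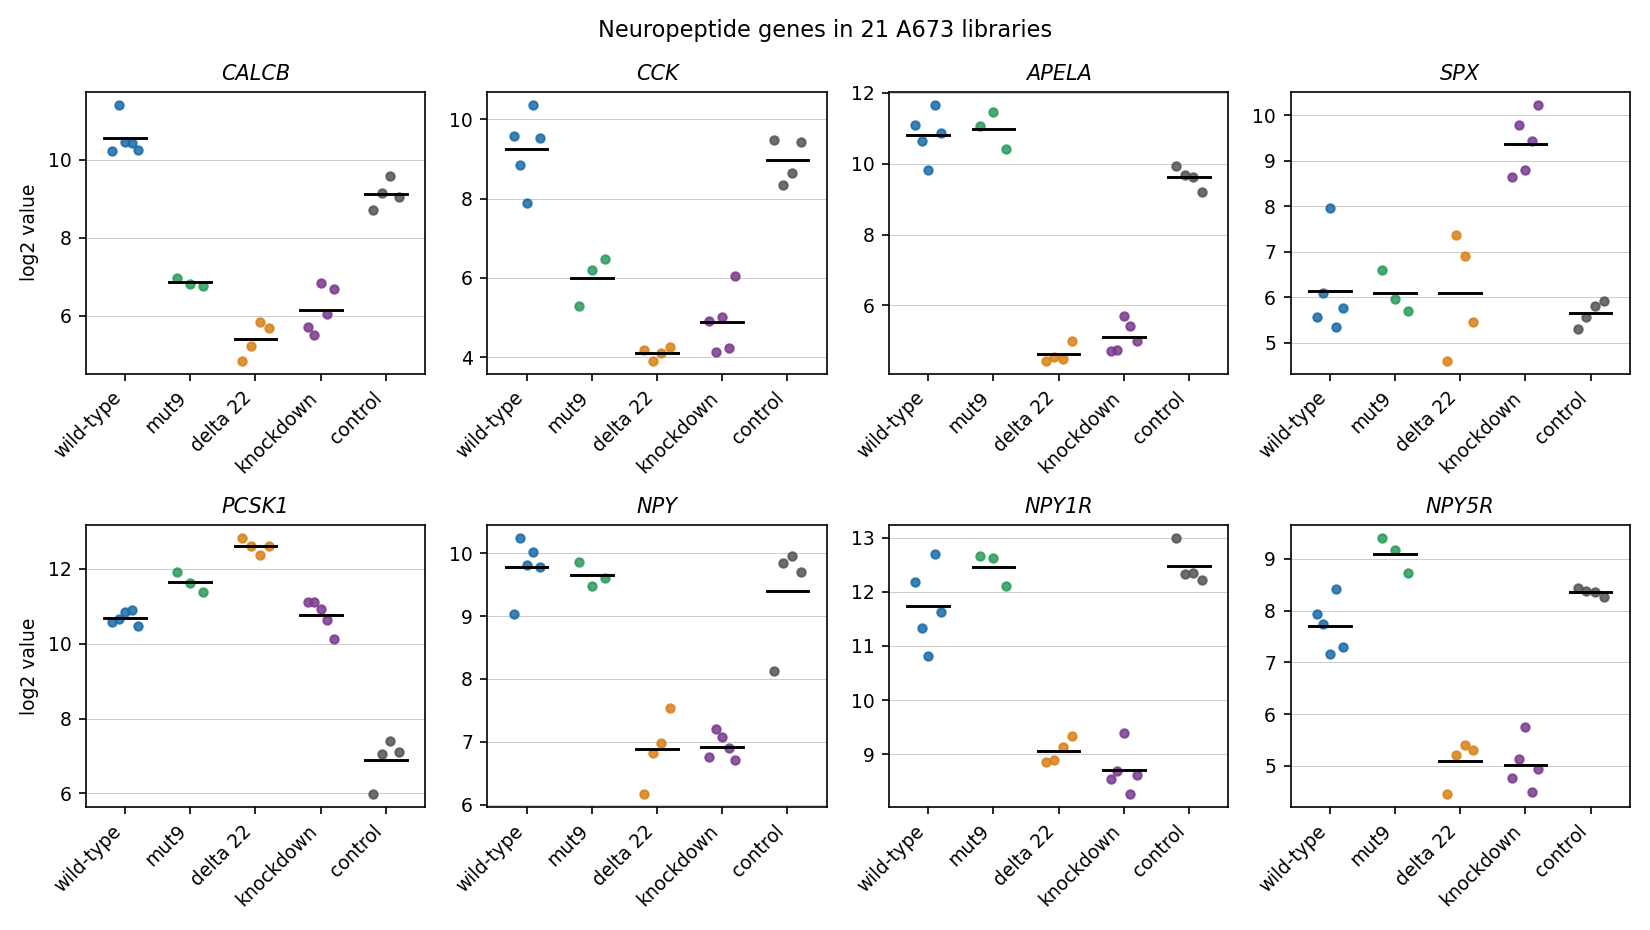
Normalized log2 value (vertical axis, a separate range per panel) of each neuropeptide gene in each library (points, in replicate order within a group) of the wild-type, mut9, delta 22, knockdown and control groups, with the group mean as a black line. CALCB and CCK are high in wild-type and control libraries only among the 5 groups, APELA, NPY, NPY1R and NPY5R also in mut9 libraries, SPX is high in knockdown libraries, and PCSK1 is lowest in control and highest in delta 22 libraries.

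APELA, which encodes a small secreted ligand of the apelin receptor that acts in early heart development, was high with mut9 and with wild-type EWS/FLI and low with delta 22. Its log2 values were 11.08, 10.63, 9.83, 11.66 and 10.87 in wild-type, 11.06, 11.47 and 10.42 in mut9 and 4.44, 4.54, 4.49 and 5.00 in delta 22 libraries. Knockdown libraries had 4.70, 4.74, 5.71, 5.41 and 4.99 and control libraries 9.95, 9.68, 9.62 and 9.19. Wild-type and mut9 libraries overlapped, all mut9 libraries lay above all control libraries, and delta 22 libraries overlapped with knockdown libraries. Wild-type minus knockdown was 5.71 ± 0.28 (52.2-fold), mut9 minus knockdown 5.87 ± 0.32 (58.6-fold) and delta 22 minus knockdown -0.49 ± 0.30. Mut9 minus wild-type was 0.17 ± 0.32, and within batches 3, 4 and 5 it was 1.24, -0.20 and -0.46, so that its sign differed between batches. Without wild-type replicate 3, the lowest wild-type library for this gene, it was -0.08. Wild-type minus control was 1.20 ± 0.30 with overlapping groups.

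NPY, the gene of neuropeptide Y, an abundant peptide of sympathetic and brain neurons, separated the libraries into a high set (wild-type, mut9 and control) and a low set (delta 22 and knockdown). Its log2 values were 9.03, 10.24, 9.82, 10.02 and 9.78 in wild-type, 9.86, 9.49 and 9.62 in mut9 and 6.17, 6.83, 6.98 and 7.54 in delta 22 libraries. They were 6.75, 7.20, 7.08, 6.89 and 6.70 in knockdown and 8.12, 9.85, 9.96 and 9.70 in control libraries. Within the high set, and within the low set, neighbouring groups overlapped, and no library of one set reached the other. Wild-type minus knockdown was 2.86 ± 0.30, mut9 minus knockdown 2.73 ± 0.35 and delta 22 minus knockdown -0.04 ± 0.32, whereas mut9 minus wild-type was -0.13 ± 0.35. Batch 1 gave the lowest NPY value in the wild-type (9.03), delta 22 (6.17) and control (8.12) groups, though not among knockdown libraries.

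The receptor genes were high and low in the same groups as the peptide gene, and NPY5R was highest with mut9. NPY1R encodes the Y1 receptor, which binds neuropeptide Y and peptide YY and signals through inhibitory G proteins. Log2 values were 12.19, 11.33, 10.82, 12.70 and 11.63 in wild-type, 12.66, 12.62 and 12.11 in mut9 and 8.86, 8.90, 9.14 and 9.34 in delta 22 libraries, with 8.55, 8.69, 9.38, 8.27 and 8.62 in knockdown and 12.99, 12.33, 12.35 and 12.21 in control libraries. Wild-type, mut9 and control libraries overlapped, all above delta 22 and knockdown libraries, which overlapped with each other. NPY5R, the Y5 receptor gene, had 7.93, 7.75, 7.16, 8.42 and 7.30 in wild-type, 9.4, 9.17 and 8.72 in mut9 and 4.46, 5.21, 5.40 and 5.31 in delta 22 libraries, with 4.77, 5.14, 5.76, 4.50 and 4.94 in knockdown and 8.43, 8.37, 8.37 and 8.26 in control libraries. All 3 mut9 libraries lay above every wild-type and every control library for NPY5R.

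Mut9 minus knockdown was 3.76 ± 0.31 for NPY1R (13.5-fold) and 4.08 ± 0.28 for NPY5R (16.9-fold), against 3.03 ± 0.27 and 2.69 ± 0.25 for wild-type minus knockdown. Delta 22 minus knockdown was 0.35 ± 0.29 and 0.07 ± 0.26. Mut9 minus wild-type was 1.39 ± 0.28 for NPY5R, with 2.24, 0.75 and 1.42 in batches 3, 4 and 5, and 0.73 ± 0.31 for NPY1R, with 1.84, -0.08 and 0.47. The NPY1R difference thus lay mostly in batch 3, and it was 0.50 without wild-type replicate 3. Wild-type replicate 3 was the lowest wild-type library for CCK, APELA, NPY1R and NPY5R and the highest for SPX, and it also had the lowest FLI1 of that group (10.35); the part of FLI1 in these values was not tested. NPY1R and NPY5R lie on opposite strands and their annotated genes overlap, and whether counting used strand is not given in the sources used here, so their values may not be fully separate.

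**Figure D2:**
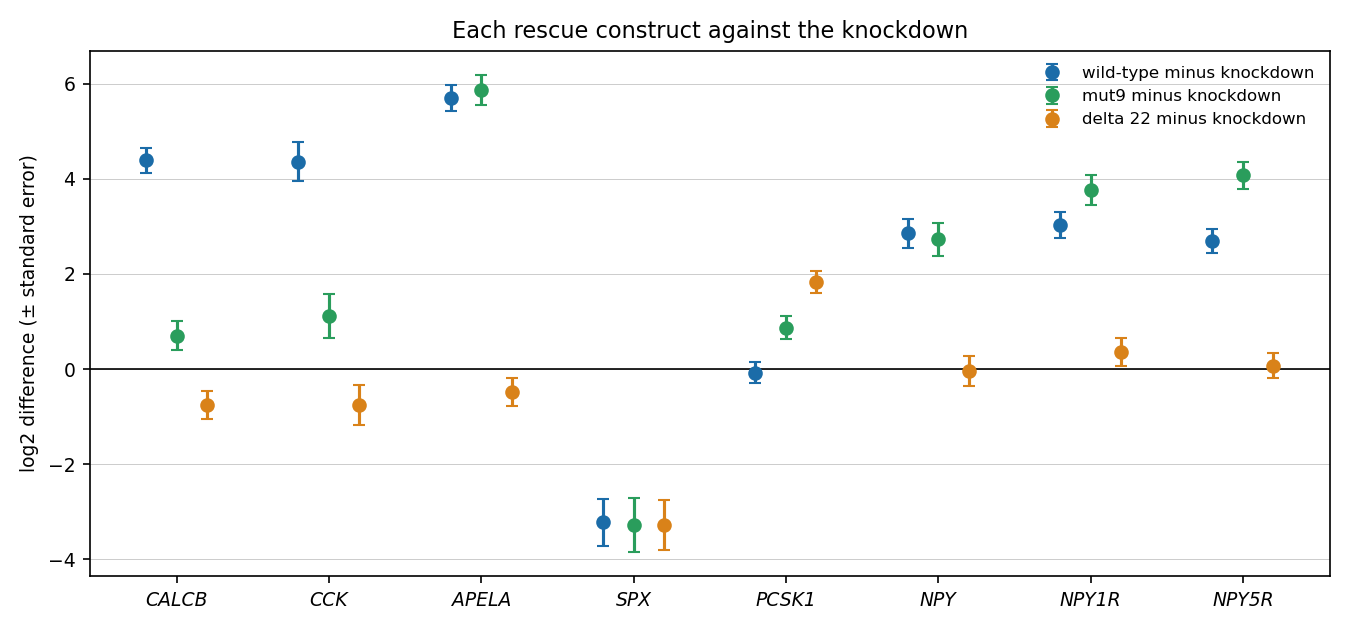
Log2 difference of each rescue group from the knockdown group (points, with standard errors from limma as bars) for each neuropeptide gene. Wild-type and mut9 points lie together for APELA, SPX and NPY, wild-type lies far above mut9 for CALCB (4.39 and 0.70) and CCK (4.36 and 1.12), all 3 constructs lie near -3.3 for SPX, and delta 22 lies highest for PCSK1 (1.83).

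SPX, which encodes spexin, a peptide that acts on galanin receptors, was lower with every construct than in knockdown libraries. It ran opposite to the other member ligands in knockdown against control and in wild-type against knockdown. With delta 22 it did not, since delta 22 libraries of the other member ligands overlapped with knockdown libraries. Spexin transcripts had log2 values of 5.57, 6.09, 7.96, 5.35 and 5.77 in wild-type, 6.60, 5.98 and 5.71 in mut9 and 4.61, 7.38, 6.91 and 5.46 in delta 22 libraries. Knockdown libraries had 8.64, 9.78, 8.80, 9.43 and 10.23 and control libraries 5.32, 5.58, 5.80 and 5.93. Every rescue library lay below every knockdown library, and the 3 rescue groups overlapped with each other and with control libraries. Wild-type minus knockdown was -3.23 ± 0.50, mut9 minus knockdown -3.28 ± 0.57 and delta 22 minus knockdown -3.29 ± 0.53 (9.75-fold lower). Delta 22 libraries were widely spread (SD 1.28), and each was lower than the knockdown library of its batch, by log2 differences of -4.03, -2.40, -1.88 and -3.97 in batches 1 to 4. Wild-type replicate 3 stood above the other 4 wild-type libraries, and without it wild-type minus knockdown was -3.68. Mut9 minus wild-type was -0.06 ± 0.57 with it and 0.40 without it.

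PCSK1, the gene of prohormone convertase 1/3, which cuts peptide precursors including those of cholecystokinin and neuropeptide Y, stayed far above control with every construct and was highest with delta 22. Its log2 values were 10.59, 10.67, 10.86, 10.91 and 10.48 in wild-type, 11.93, 11.64 and 11.38 in mut9 and 12.83, 12.61, 12.38 and 12.62 in delta 22 libraries. They were 11.10, 11.11, 10.92, 10.62 and 10.13 in knockdown and 5.98, 7.06, 7.40 and 7.11 in control libraries. Delta 22 libraries lay above mut9 libraries, mut9 above knockdown, and all of them above control, with no overlap at these steps, and wild-type overlapped with knockdown. Delta 22 minus knockdown was 1.83 ± 0.23 (3.56-fold). Mut9 minus knockdown was 0.87 ± 0.25, and wild-type minus knockdown -0.08 ± 0.22. Wild-type minus control remained 3.81 ± 0.23 (14.1-fold). Within batches 1 to 4 delta 22 minus wild-type was 2.24, 1.94, 1.52 and 1.70, and within batches 3, 4 and 5 mut9 minus wild-type was 1.07, 0.73 and 0.91.

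Knockdown against control, which compares EWS/FLI RNAi with luciferase RNAi, was tested for all 8 members, since the choice of members rested on the rescues. The knockdown libraries are shared with contrasts that chose the members, and earlier results were known, so the tests are not independent of that choice. FLI1 RNA was 3.64-fold lower in knockdown than in control libraries. Whether the changes below come from loss of the fusion or from the RNAi construct itself was not tested. All 8 changed, 6 lower and 2 higher, beside 69.5% of the 18040 genes tested that changed in either direction, 34% lower and 35.5% higher. Among called genes 51.1% were higher, against 38% after quantile scaling. That scaling moved the median of all genes from -0.0068 to -0.202 and changed the direction of no member. The groups did not overlap for any of the 8, as for 59.4% of all genes. APELA fell by the most (-4.50 ± 0.30, 22.7-fold, limma adjusted p = 8.26e-11), followed by CCK (-4.09 ± 0.43, adjusted p = 5.36e-08) and NPY1R (-3.77 ± 0.29, adjusted p = 7.38e-10). NPY5R (-3.34 ± 0.26, adjusted p = 1.08e-09), CALCB (-2.96 ± 0.29, adjusted p = 1.95e-08) and NPY (-2.48 ± 0.32, adjusted p = 9.25e-07) fell as well. PCSK1 (3.89 ± 0.23, adjusted p = 2.08e-11) and SPX (3.72 ± 0.53, adjusted p = 3.11e-06) rose. A change at least as large as that of NPY was seen in 7.64% of all genes tested. In every one of the 4 batches with both groups the direction was the same for each gene. Without control replicate 1, which was low for NPY, the NPY difference was -2.91. These p-values measure spread between libraries of 1 cell line, which may be technical.

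Over the contrasts that chose the members, how many have groups without overlap is fixed by that choice and is given as a description only. The groups did not overlap for 7 of 8 members with wild-type against knockdown (42.5% of all genes), for 6 with mut9 against knockdown (46.9%) and for 2, SPX and PCSK1, with delta 22 against knockdown (8.36%). Between rescues they did not overlap for 4 with mut9 against wild-type (23.8%), CALCB and CCK being lower with mut9 and PCSK1 and NPY5R higher. For delta 22 against wild-type (47.3%) and for mut9 against delta 22 (52.5%) this held for 7, SPX being the exception in both. For wild-type against control it held for 2, CALCB and PCSK1 (31.2%). NPY1R (-0.74 ± 0.29) and NPY5R (-0.64 ± 0.26) were lower with wild-type than in control libraries, with overlapping groups.

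**Figure D3:**
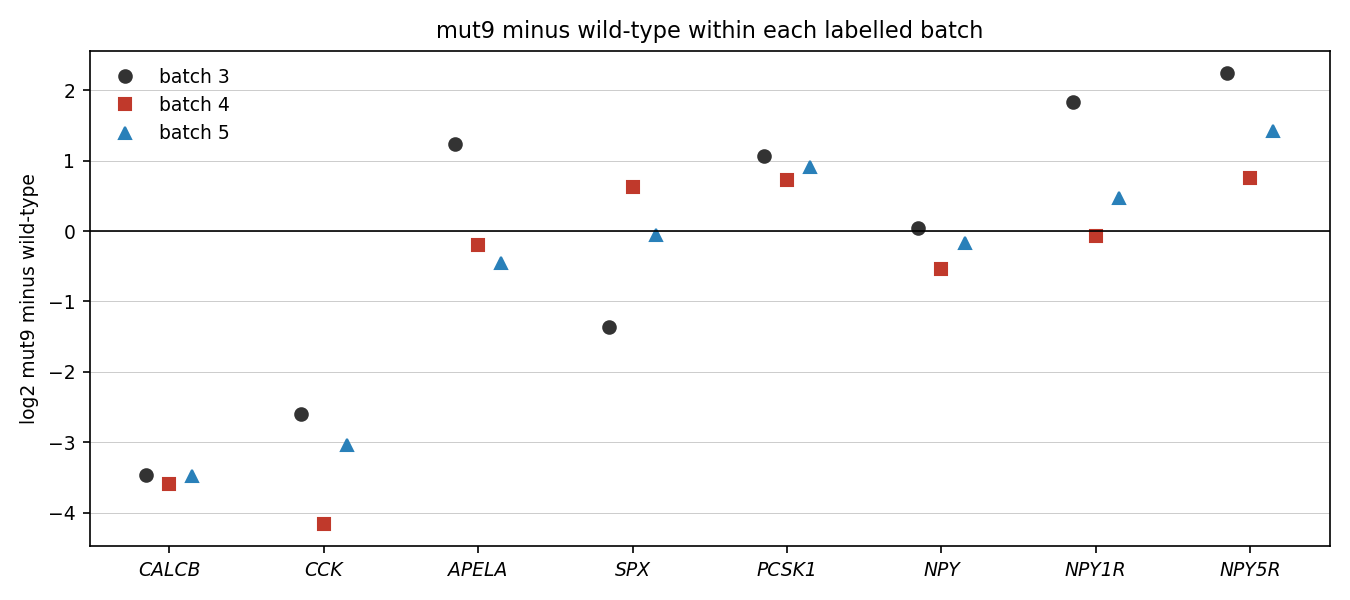
Log2 difference of the mut9 library from the wild-type library of the same labelled batch, for each neuropeptide gene (3 batches, 1 symbol each). CALCB and CCK lie at -2.60 or lower in all 3 batches, PCSK1 and NPY5R at 0.73 or higher, and the other genes lie on both sides of 0.

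Among themselves the members fell into different patterns over the 21 libraries, described here by Pearson correlations of log2 values over libraries that share their groups and batches. NPY1R and NPY5R had r = 0.98, APELA with NPY1R r = 0.94, and CALCB with CCK r = 0.93. CALCB with NPY5R was looser (r = 0.65), and PCSK1 with SPX had r = 0.16. Outside the lists, the genes most like CALCB were TFDP3 (r = 0.96) and RPUSD4 (r = 0.96), those most like CCK were RBM19 (r = 0.96) and TWNK (r = 0.96), and those most like APELA were PHOSPHO1 (r = 0.99) and CUX2 (r = 0.99). NPY was most like CSPG5 (r = 0.97) and MGARP (r = 0.97), NPY1R like FCGRT (r = 0.98) and LBH (r = 0.98), and NPY5R like FCGRT (r = 0.99) and SLC35F3 (r = 0.98). SPX was most like ROCK1P1 (r = 0.95) and AKR1B15 (r = 0.95), and PCSK1 like ATL3 (r = 0.95) and CDC42EP4 (r = 0.95). High correlations were common for some members and rare for others: 544 of 16403 genes exceeded 0.9 with NPY1R, 543 with APELA and 72 with CALCB, but 16 with SPX.

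Genes that act with the members were taken from a list written from general knowledge, 13 of whose 22 genes were tested. With knockdown against control 4 of the 13 rose and 8 fell, beside 35.5% and 34% of all genes tested. With wild-type against knockdown 7 rose and 4 fell, beside 29.6% and 32.3%, and with mut9 against knockdown 9 rose and 2 fell, beside 23% and 25.5%. With delta 22 against knockdown 2 rose and 0 fell, beside 2.24% and 2.26%. CALCA, the paralog of CALCB that gives calcitonin and the alpha peptide, was highest with wild-type EWS/FLI (6.82 ± 0.44, mean ± SD), against 4.61 ± 0.39 with mut9, 3.29 ± 0.28 with delta 22, 3.58 ± 0.31 in knockdown and 4.56 ± 0.57 in control libraries. It rose with wild-type against knockdown (3.24 ± 0.25, limma adjusted p = 1.49e-09) and against control (2.26 ± 0.26, adjusted p = 2.38e-06), and mut9 was lower than wild-type (-2.21 ± 0.28, adjusted p = 7.16e-05). CALCA overlaps the annotated CALCB gene on the opposite strand, and 1.11% of the 50-base stretches of CALCB transcripts also occur in CALCA transcripts, so the values of this pair are uncertain. The other members shared no 50-base stretch with another gene.

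Receptor subunits of these peptides were measured as well. CALCRL, the receptor for calcitonin gene-related peptide and adrenomedullin, fell with knockdown against control (-1.50 ± 0.28, limma adjusted p = 8.57e-05). Relative to knockdown it rose with wild-type (2.27 ± 0.26, adjusted p = 4.2e-07), with mut9 (3.01 ± 0.30, adjusted p = 1.72e-07) and with delta 22 (1.36 ± 0.28, adjusted p = 0.00912), where its mean was 8.58 ± 0.51 against 7.22 ± 0.53 in knockdown libraries. The delta 22 call was lost when that pair of groups was fitted alone (adjusted p = 0.0585) and in batches 3 to 5 (adjusted p = 0.111). RAMP2, a subunit that directs CALCRL toward adrenomedullin, rose with wild-type (1.48 ± 0.16, adjusted p = 1.3e-07) and with mut9 (0.98 ± 0.18, adjusted p = 0.000184) but had -0.09 ± 0.17 with delta 22 (adjusted p = 0.828). RAMP1, the subunit for calcitonin gene-related peptide, fell with knockdown against control (-0.69 ± 0.21, limma adjusted p = 0.00704). It rose with mut9 against knockdown (0.69 ± 0.23, adjusted p = 0.0187), a call lost in batches 3 to 5 (0.0593) and without mut9 replicate 3 (0.106) or 4 (0.093), and did not pass with wild-type (0.18 ± 0.20, adjusted p = 0.454).

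CCKAR, a cholecystokinin receptor measured at low values, fell with knockdown (-1.49 ± 0.29, limma adjusted p = 0.000115) and rose with mut9 (2.24 ± 0.31, adjusted p = 8.33e-06) and wild-type (1.88 ± 0.27, adjusted p = 6.01e-06), and its mut9 minus wild-type difference did not pass (0.36 ± 0.31, adjusted p = 0.461). APLNR, the receptor of the APELA peptide, was above control with wild-type (7.09 ± 0.38 against 4.18 ± 0.61, difference 2.91 ± 0.33, adjusted p = 1.72e-06). Its mean was lowest in control libraries, with 5.02 ± 0.71 in knockdown, 5.19 ± 0.32 in delta 22 and 6.19 ± 0.43 in mut9 libraries. Unlike APELA, APLNR rose with knockdown against control (0.85 ± 0.33, adjusted p = 0.0276). That call was lost with the compared groups alone (adjusted p = 0.0676), after quantile scaling (0.123) and under other settings. APLN, the gene of apelin, the other ligand of that receptor, moved opposite to APELA: it rose with knockdown against control (2.30 ± 0.29, adjusted p = 6.18e-07) and fell with wild-type (-1.95 ± 0.27, adjusted p = 3.75e-06) and mut9 (-1.46 ± 0.31, adjusted p = 0.000722) against knockdown. DPP4, a protease that trims neuropeptide Y, followed NPY, falling with knockdown (-1.96 ± 0.31, adjusted p = 1.48e-05) and rising with wild-type (1.82 ± 0.30, adjusted p = 2.54e-05) and mut9 (1.67 ± 0.34, adjusted p = 0.000467).

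The processing enzymes did not move as one. PCSK2, the second neuroendocrine convertase, fell with knockdown against control, where PCSK1 rose. Its mean was 13.15 ± 0.29 in wild-type, 12.76 ± 0.23 in mut9, 8.66 ± 0.89 in delta 22, 9.19 ± 0.69 in knockdown and 12.90 ± 0.16 in control libraries. The fall with knockdown was -3.71 ± 0.34 (limma adjusted p = 7.96e-09), and PCSK2 rose with wild-type (3.96 ± 0.32, adjusted p = 2.85e-09) and mut9 (3.57 ± 0.37, adjusted p = 2.04e-07), while delta 22 minus knockdown did not pass (-0.53 ± 0.34, adjusted p = 0.422). SCG5, the chaperone of PCSK2, went the other way, with a rise in knockdown (2.26 ± 0.36, adjusted p = 1.38e-05) and a fall with wild-type (-1.88 ± 0.34, adjusted p = 8.31e-05). PCSK1N, which encodes an inhibitor of the PCSK1 product, rose with knockdown (0.96 ± 0.13, adjusted p = 2.77e-06), and its rise with delta 22 (0.50 ± 0.13, adjusted p = 0.0362) was lost on leaving out any single delta 22 library. CPE, carboxypeptidase E, fell with wild-type against knockdown (-1.18 ± 0.18, adjusted p = 1.38e-05) and was higher with mut9 than with wild-type (0.94 ± 0.21, adjusted p = 0.00433, and 0.052 in batches 3 to 5). PAM, the amidating enzyme, was also higher with mut9 than with wild-type (0.54 ± 0.11, adjusted p = 0.00186).

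**Figure D4:**
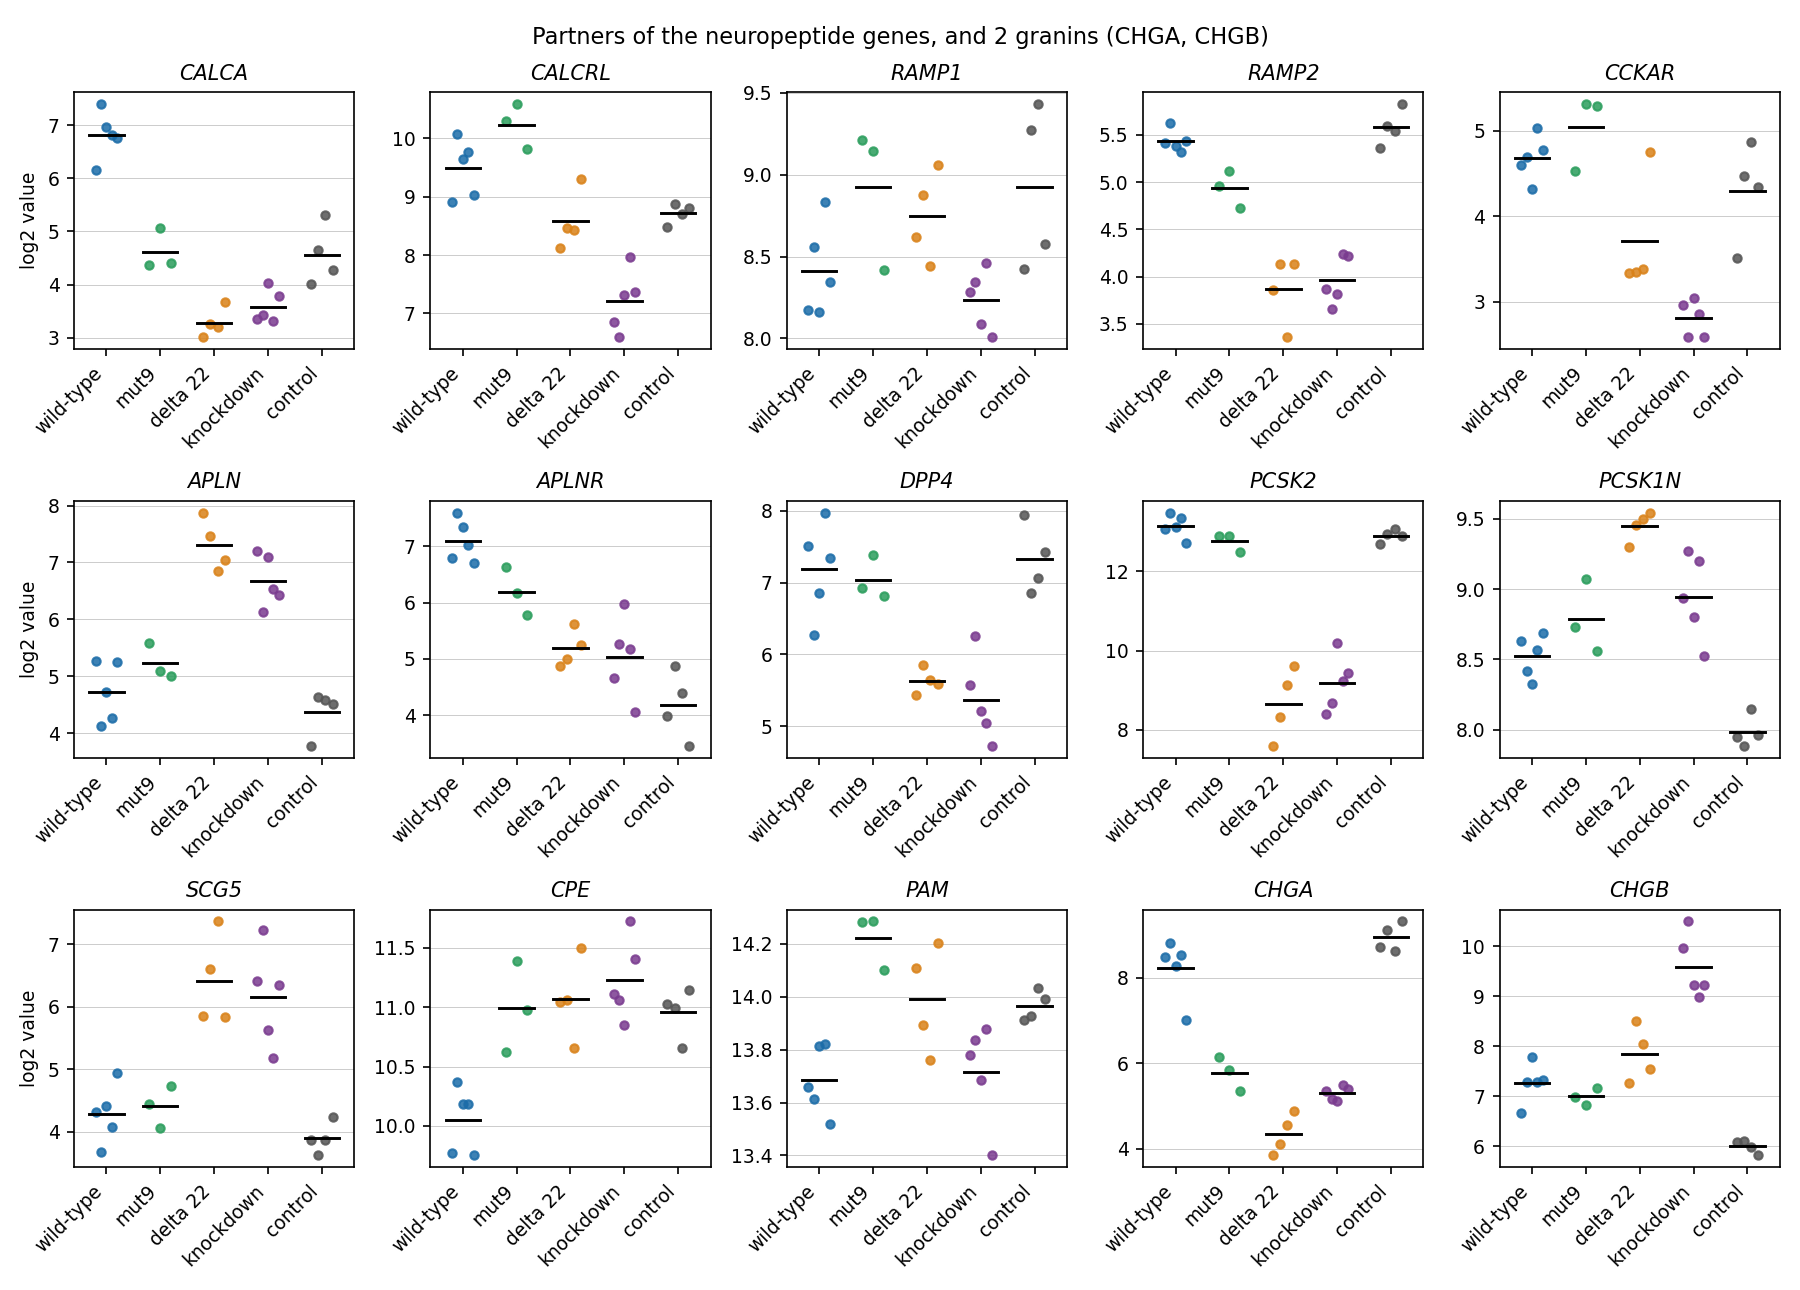
Normalized log2 value (vertical axis, a separate range per panel) of the 13 tested partner genes and the granin genes CHGA and CHGB in each library (points) of the wild-type, mut9, delta 22, knockdown and control groups, with the group mean as a black line. CALCA and CHGA are highest in wild-type among the EWS/FLI RNAi groups, PCSK2 is high in wild-type, mut9 and control libraries, and CHGB is highest in knockdown libraries.

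The wider set of other peptide ligand, processing and receptor genes came from general knowledge, 144 genes of which 61 were tested. It held genes that rose and genes that fell in every comparison. With knockdown against control 32 higher and 19 lower of 61 changed (median 0.62 against -0.01 over all genes), beside 35.5% higher and 34% lower of all genes (51.1% of calls higher, 38% after quantile scaling), with ligands at 9 higher and 7 lower of 18, processing genes at 12 higher and 6 lower of 20 and receptors at 11 higher and 6 lower of 23. ADM, the adrenomedullin gene, rose (4.91 ± 0.25, limma adjusted p = 2.13e-12), as did UCN2, urocortin 2 (4.54 ± 0.28, adjusted p = 3.37e-11), and the gastrin-releasing peptide receptor gene GRPR (4.79 ± 0.23, adjusted p = 1.27e-12). The gene of its ligand, GRP, fell (-3.56 ± 0.30, adjusted p = 2.82e-09). MME, the peptide-degrading enzyme neprilysin, rose (4.51 ± 0.31, adjusted p = 1.46e-10), QRFPR, a receptor of RFamide peptides, fell (-3.07 ± 0.28, adjusted p = 8.27e-09) and NTSR1, a neurotensin receptor, rose (2.37 ± 0.18, adjusted p = 5.9e-10).

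With wild-type against knockdown 20 higher and 28 lower of 61 of these genes changed (median -0.41 against 0.01). This was beside 29.6% higher and 32.3% lower of all genes, 61.8% in all. Of all calls 47.8% were higher, and 59.5% after quantile scaling, which moved the median of all genes from 0.0058 to 0.12. With mut9 against knockdown 19 higher and 19 lower of 61 changed (median -0.21 against -0.0027), beside 23% and 25.5%, 48.6% in all. GRP rose with wild-type (3.16 ± 0.28, limma adjusted p = 1.17e-08) and with mut9 (2.52 ± 0.33, adjusted p = 3.42e-06), and QRFPR did too (2.89 ± 0.26, adjusted p = 1.55e-08, and 3.45 ± 0.30, adjusted p = 2.98e-08). GRPR fell with wild-type (-3.47 ± 0.22, adjusted p = 1.17e-10) and, by less, with mut9 (-1.83 ± 0.25, adjusted p = 6.63e-06). MME fell with wild-type (-3.98 ± 0.29, adjusted p = 8.02e-10) and mut9 (-3.01 ± 0.33, adjusted p = 5.58e-07). ADM fell with wild-type (-3.34 ± 0.23, adjusted p = 4.27e-10) and mut9 (-2.33 ± 0.27, adjusted p = 8.45e-07).

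With delta 22 against knockdown 2 higher and 3 lower of 61 changed (median -0.06 against 0.01). This was beside 2.24% higher and 2.26% lower of all genes, 4.5% in all. A block for the labelled batch gave 4 higher and 5 lower of the 61, while calls among all genes rose from 811 to 1292. The compared groups alone gave 2 calls among the 61 and 262 among all genes. Batches 3 to 5 gave 1 and 15. CHGB, chromogranin B, a granin of dense-core vesicles, fell (-1.75 ± 0.28, limma adjusted p = 0.00162), with values of 7.26 to 8.49 in delta 22 against 8.98 to 10.50 in knockdown libraries. CHGB fell with mut9 as well (-2.58 ± 0.31, adjusted p = 1.2e-06). With wild-type it was also lower than in knockdown libraries (-2.31 ± 0.27), so like SPX it was lower with every construct. ADM2, the gene of intermedin, fell with delta 22 (-1.75 ± 0.33, adjusted p = 0.00505), a call that was lost in batches 3 to 5 (adjusted p = 0.179). ADM2 was lower than in knockdown libraries with wild-type too (-1.91 ± 0.31). Its mean was 7.49 ± 0.43 with mut9, against 8.66 ± 0.22 in knockdown libraries.

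Between mut9 and wild-type 9 higher and 4 lower of 61 differed (median 0.13 against 0.01), beside 11.2% higher and 7.61% lower of all genes, 18.8% in all (59.5% of calls higher, 43.9% after quantile scaling). CHGA, chromogranin A, was like CALCB and CCK high in wild-type and control libraries and low with both mutants. Its values were 7.01 to 8.82 in wild-type, 5.36 to 6.14 in mut9, 3.85 to 4.89 in delta 22, 5.11 to 5.49 in knockdown and 8.63 to 9.32 in control libraries. Unlike CALCB and CCK, CHGA had its highest mean in control libraries, and its delta 22 libraries all lay below its knockdown libraries. It was lower with mut9 than with wild-type (-2.45 ± 0.32, 5.45-fold, limma adjusted p = 7.14e-05), and rose with wild-type against knockdown (2.92 ± 0.27, adjusted p = 2.23e-08). GRPR (1.64 ± 0.25, adjusted p = 0.000261), ADM (1.02 ± 0.27, adjusted p = 0.0126, and not passing without mut9 replicate 3 or 4) and ECE1, an endothelin-converting enzyme (0.97 ± 0.16, adjusted p = 0.000616), were higher with mut9. Delta 22 against wild-type gave 28 higher and 20 lower of 61, mut9 against delta 22 17 higher and 24 lower of 61, and wild-type against control 23 higher and 6 lower of 61, beside 61.2% (31.7% higher and 29.5% lower), 49.3% (23.4% and 25.8%) and 39.6% (21.3% and 18.3%) of all genes.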

How the data were processed

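RNA from A673 cells (2.5 µg of total RNA per library, per the labels) was sequenced in 21 libraries. The authors deposited 1 table of normalized log2 values per gene. bcl2fastq, STAR 2.5.2b, HTSeq and DESeq2, and the build hg19, are named in the submitters' processing notes. The regularized-log form is inferred from the values, which run below 0 and draw low genes together. Library totals are not kept, so the depth is unknown and no counting intervals are given.

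Genes at 10 or more on the linear scale in at least 3 libraries were tested (18040 of 57820; 17358 are listed at 0 throughout) with limma 3.58.1 in R 4.3.3, on all 21 libraries with 1 mean per group and 1 shared spread, with Benjamini-Hochberg adjustment over all genes tested. The fit was checked on simulated data for the size of added differences only. Noise there was independent between libraries, unlike the batch-linked deviations given below, so this check does not show whether the p-values hold here. Symbols were matched for 51996 IDs. Members and lists were chosen with earlier results of these data known, the lists from general knowledge. The related genes named are tested partners of the members and, from the ligand, processing and receptor lists, called genes among the 3 with the largest difference in a comparison and a mean of 100 on the linear scale in 1 of its groups. Neighbours are the 2 unlisted genes with the highest Pearson r. Replicate numbers equal the labelled batch: deviations from group means correlated at 0.203 on average over 34 same-number pairs (24 above 0.1) and at -0.0488 over other pairs. Alternatives were other scalings and filters, a pseudocount of 10, a replicate block, the compared groups alone, batches 3 to 5, and each library left out. Overlaps come from GENCODE 29. Some listed marker genes are not reported here.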

Additional observations from a re-analysis of the deposited data

Results flagged for a closer look

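In 32 sets of 4 or 5 libraries (4 groups for each of 8 genes), 3 held a library set apart from the others by Dixon's criterion, which chance meets in about 1 of 20 sets. For CALCB, wild-type replicate 2 was at 11.40, above the other wild-type libraries at 10.22 to 10.44. For SPX, wild-type replicate 3 was at 7.96, above the other wild-type libraries at 5.35 to 6.09. For NPY, control replicate 1 was at 8.12, below the other control libraries at 9.70 to 9.96. Why these libraries stand apart was not tested.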

How the results depend on the processing

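The 8 members kept their direction and their calls for knockdown against control under all alternatives tried, and no related gene named here changed direction where it had a call. Small member differences did change sign under some alternatives: PCSK1 for wild-type against knockdown, NPY and NPY5R for delta 22 against knockdown, APELA and SPX for mut9 against wild-type, SPX for delta 22 against wild-type and mut9 against delta 22, and NPY and CCK for wild-type against control (NPY 0.37, and -0.06 without control replicate 1). Of the member differences without a test, 1 moved by more than the spread between replicates, CALCB for delta 22 minus wild-type in batches 3 to 5 (-4.61, against -5.15). Among single-gene tests, of related genes and of the members for knockdown against control, 73 alternatives lost a call, 16 gained one and 2487 did neither. The number of genes called was least stable for delta 22 against knockdown: 811 became 1292 with the replicate block, 262 with the compared groups alone and 15 in batches 3 to 5, and it was 383 to 857 with single libraries left out (383, 502 and 484 without delta 22 replicates 1, 2 and 4, and 495 without knockdown replicate 5). Of related genes, 5 called there became 9 with the block, 2 with the compared groups alone and 1 in batches 3 to 5, and 3 to 6 with single libraries left out (3 without delta 22 replicate 1 or 4). For mut9 against wild-type 3390 genes became 1745 in batches 3 to 5 and 1723 to 3572 with single libraries left out (1723 without mut9 replicate 3, 1903 without mut9 replicate 4). For wild-type against control 7135 genes became 4588 in batches 3 to 5, and 29 related genes became 17. A filter at a linear mean of 100, which tests fewer genes, gave 24 related calls (51 without it) for knockdown against control, 23 (48) for wild-type and 21 (38) for mut9 against knockdown, 7 (13) for mut9 against wild-type, 23 (48) for delta 22 against wild-type, 21 (41) for mut9 against delta 22 and 16 (29) for wild-type against control. How many related genes this filter still tests is not given, so these counts cannot tell a lost call from a gene left untested. The causes of the other changes were not tested. The replicate block also gave calls for CCKAR in delta 22 against knockdown (limma adjusted p = 0.0469), APLNR in mut9 against wild-type (0.00839), PAM in mut9 against delta 22 (0.0274) and RAMP1 in wild-type against control (0.00787), and changed no other call of the genes named here; which further genes changed was not listed. Without library totals, the smallest detectable difference of low genes is unknown.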
